A study of Mus musculus with 11 samples.

Results

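The 10 genes described here encode ABC exporters that move drugs, conjugates and bile components out of cells: Abcc1, Abcc2, Abcc3, Abcc4, Abcc6, Abcb1a, Abcb1b, Abcb4, Abcb11 and Abcg2. They were found as the array probes, controls aside, whose accession belongs to one of these symbols in RefSeq's mouse table. That gave 11 probes, of 55681 probes and 20145 genes with a symbol on the array. Abcc6 had 2 probes and each other gene had 1, and all 11 probes passed the filter on dim probes, which asked for a signal well above background on at least 3 of the 11 arrays.

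Whole-liver RNA was measured on 1-colour arrays, 1 array for each of 11 male, untreated mice of a mixed background, mainly B6SJL and to a lesser part 129S6. The groups were 4 livers labelled β-catΔEx3:Myc, 3 livers labelled β-catΔEx3 and 4 wild-type (WT) livers. β-catΔEx3 stands for β-catenin without the stretch encoded by exon 3, a form that escapes degradation and keeps Wnt signalling on, and Myc is a transcription factor of growth. By the series title, the mice model hepatoblastoma, a liver cancer of childhood, and serve to find targets for therapy. The labels put the mice at 22 to 40 days of age, save for β-catΔEx3:Myc replicate 4 (29 days), β-catΔEx3 replicate 3 (30 days) and WT replicate 4 (31 days). They name neither the promoter that drives the changes nor the cells that carry them. The design text calls all the livers tumour-bearing, WT included, leaves unsaid if the sample was tumour or nearby tissue, and describes the β-catΔEx3:Myc mice by c-Myc alone.

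ABC exporters spend ATP to pump their cargo across a membrane. In hepatocytes, one set sits in the canalicular membrane and empties into bile, while another sits in the basolateral membrane and returns cargo to the blood. Several of them are known to be controlled by the nuclear receptors Fxr, Car and Pxr and by Nrf2, the transcription factor of the antioxidant response, and several lower the sensitivity of tumour cells to drugs.

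Levels below are the probe's background-subtracted signal divided by the 75th percentile (upper quartile) of that array's signals, which lay between 227 and 354.3 scanner units. A level of 1 is thus as bright as the array's upper quartile. Levels are compared between groups and not between genes, since each probe has its own brightness. Tests are limma's moderated tests on the log2 scale over all 22282 items (13962 genes and 8320 unnamed accessions), with adjusted p-values by Benjamini-Hochberg over all items and a threshold of 0.05.

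RefSeq's promoter table (build GRCm38.p6) held 10 promoters of 7 of these genes, each running from 250 bases before to 50 bases after a transcription start. They were searched on both strands for TGACNNNGC, the core of the antioxidant element that Nrf2 binds, for TCAAAG and ACAAAG, cores that the Tcf/Lef partners of β-catenin bind, for the E-box CACGTG bound by Myc, and for an inverted repeat of the kind Fxr binds, GGNCA followed after any 1 base by TGNCC. Of 32851 promoters in the table, 12.4% held TGACNNNGC, 31.2% held a Tcf/Lef core (16.0% TCAAAG and 18.7% ACAAAG), 7.15% held CACGTG and 0.676% held the inverted repeat. The 6 promoters below belong to the exporters with the largest changes in mutant livers (Abcc4 with both of its promoters, Abcc2, Abcb1a and Abcb1b) and to Abcb11, the bile salt pump, whose change ran the other way. Each is written 5′ to 3′ along the gene, with matches in capitals. No matches overlapped, and positions count from the start site as +1.
Abcc4, chr14:118706170-118706469, minus strand: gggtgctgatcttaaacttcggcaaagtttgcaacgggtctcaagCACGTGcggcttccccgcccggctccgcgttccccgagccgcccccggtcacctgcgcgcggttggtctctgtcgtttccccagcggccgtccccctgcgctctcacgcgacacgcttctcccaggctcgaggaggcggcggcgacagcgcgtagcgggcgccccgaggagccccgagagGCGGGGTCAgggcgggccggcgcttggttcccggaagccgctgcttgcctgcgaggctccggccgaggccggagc
Abcc4, chr14:118676882-118677181, minus strand: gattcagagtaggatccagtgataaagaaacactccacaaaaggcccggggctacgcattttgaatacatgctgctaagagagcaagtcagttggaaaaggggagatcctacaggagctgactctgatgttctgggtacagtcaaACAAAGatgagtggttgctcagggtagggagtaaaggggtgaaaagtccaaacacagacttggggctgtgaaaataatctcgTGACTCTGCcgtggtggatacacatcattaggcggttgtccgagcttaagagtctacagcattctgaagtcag
Abcc2, chr19:43782058-43782357, plus strand: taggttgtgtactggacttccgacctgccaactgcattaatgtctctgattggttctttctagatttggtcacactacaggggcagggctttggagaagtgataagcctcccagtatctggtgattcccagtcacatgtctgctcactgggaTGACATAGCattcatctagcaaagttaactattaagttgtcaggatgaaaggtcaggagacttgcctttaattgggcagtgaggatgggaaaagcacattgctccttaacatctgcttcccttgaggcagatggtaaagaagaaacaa
Abcb1a, chr5:8566841-8567140, plus strand: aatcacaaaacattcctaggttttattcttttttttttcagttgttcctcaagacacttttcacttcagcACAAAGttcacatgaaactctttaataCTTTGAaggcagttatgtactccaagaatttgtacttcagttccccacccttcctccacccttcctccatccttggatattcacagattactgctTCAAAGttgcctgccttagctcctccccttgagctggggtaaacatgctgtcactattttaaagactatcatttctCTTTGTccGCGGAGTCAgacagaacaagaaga
Abcb1b, chr5:8797897-8798196, plus strand: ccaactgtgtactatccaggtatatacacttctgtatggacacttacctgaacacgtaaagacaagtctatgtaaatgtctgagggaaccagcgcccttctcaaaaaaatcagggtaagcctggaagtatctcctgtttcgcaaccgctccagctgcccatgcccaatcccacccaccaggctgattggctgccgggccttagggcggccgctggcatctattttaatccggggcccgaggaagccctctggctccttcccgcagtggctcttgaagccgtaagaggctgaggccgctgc
Abcb11, chr2:69342567-69342866, minus strand: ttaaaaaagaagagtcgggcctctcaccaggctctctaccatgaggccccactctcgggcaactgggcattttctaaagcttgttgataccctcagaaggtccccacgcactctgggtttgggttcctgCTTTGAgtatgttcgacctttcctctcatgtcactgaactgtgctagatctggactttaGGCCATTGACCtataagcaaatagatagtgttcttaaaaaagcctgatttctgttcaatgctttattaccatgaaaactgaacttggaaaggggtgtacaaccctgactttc

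The first Abcc4 promoter held CACGTG at -205 and the antioxidant core at -25, read on the opposite strand as GCGGGGTCA, and the second held ACAAAG at -105 and TGACTCTGC at -23. The Abcc2 promoter held TGACATAGC at -98. Abcb1a held 4 Tcf/Lef cores, at -180, -153, -58 and +19, and the antioxidant core as GCGGAGTCA at +27. Abcb11 held a Tcf/Lef core at -121 and the Fxr-type repeat GGCCATTGACC at -62. None of these letters occurred in the window of Abcb1b, nor in those of Abcb4 and Abcg2. A match describes the sequence and does not show that a factor binds there.

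The arrays separated by genotype. On the first principal component, with 56.3% of the variance, the 7 mutant livers lay between 42.5 and 77.4 and the 4 WT livers between -117 and -107. On the second, with 9.61%, β-catΔEx3:Myc replicate 3 lay at 8.64 while the other three β-catΔEx3:Myc arrays lay between -71.4 and -30.1 and the β-catΔEx3 arrays between 28.5 and 52.7. The counts of exporters called higher and lower were the same without that array. Ctnnb1, the β-catenin gene, differed from WT by a log2 fold change of -0.17 ± 0.14 (SE, adjusted p = 0.378) in β-catΔEx3:Myc livers and of -0.17 ± 0.15 (adjusted p = 0.416) in β-catΔEx3 livers, and whether its probe lies in the deleted exon was not checked. The Myc level was 4.98 to 26.8 in β-catΔEx3:Myc livers, 2.21 to 4.61 in β-catΔEx3 livers and 0.591 to 4.13 in WT livers, and β-catΔEx3 and WT overlapped through WT replicate 1 alone (adjusted p = 0.00277 for β-catΔEx3:Myc against WT, 0.132 for β-catΔEx3 against WT and 0.395 between the mutant groups). Slides were confounded with genotype in part: WT replicates 1 to 3 made up slide 1, the first and second liver of β-catΔEx3:Myc and of β-catΔEx3 shared slide 2, β-catΔEx3:Myc replicate 3 was alone on slide 3, and slide 4 had a liver from every group. A comparison with WT that takes slide as a block therefore rests on the single WT array of slide 4.

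Against WT, 7 of the 10 exporters rose in β-catΔEx3:Myc livers and 7 rose in β-catΔEx3 livers, and they were the same 7: Abcc2, Abcc3, Abcc4, Abcb1a, Abcb1b, Abcb4 and Abcg2. The background was high, as 25.3% of all items were called higher in β-catΔEx3:Myc livers and 21.6% in β-catΔEx3 livers. Called lower were 1 exporter in β-catΔEx3:Myc livers (Abcc1), beside 17.1% of all items, and 2 in β-catΔEx3 livers (Abcc1 and Abcb11), beside 15.5% of all items. In each comparison 9 exporters had mutant and WT values that did not overlap, all but Abcc6, beside 42.4% of all items for β-catΔEx3:Myc and 43.7% for β-catΔEx3. The median log2 fold change of the 10 exporters was 1.47 in β-catΔEx3:Myc and 1.96 in β-catΔEx3 livers, where all items had 0.14 in β-catΔEx3:Myc and 0.10 in β-catΔEx3 livers. Both comparisons use the same 4 WT livers.

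**Figure D1:**
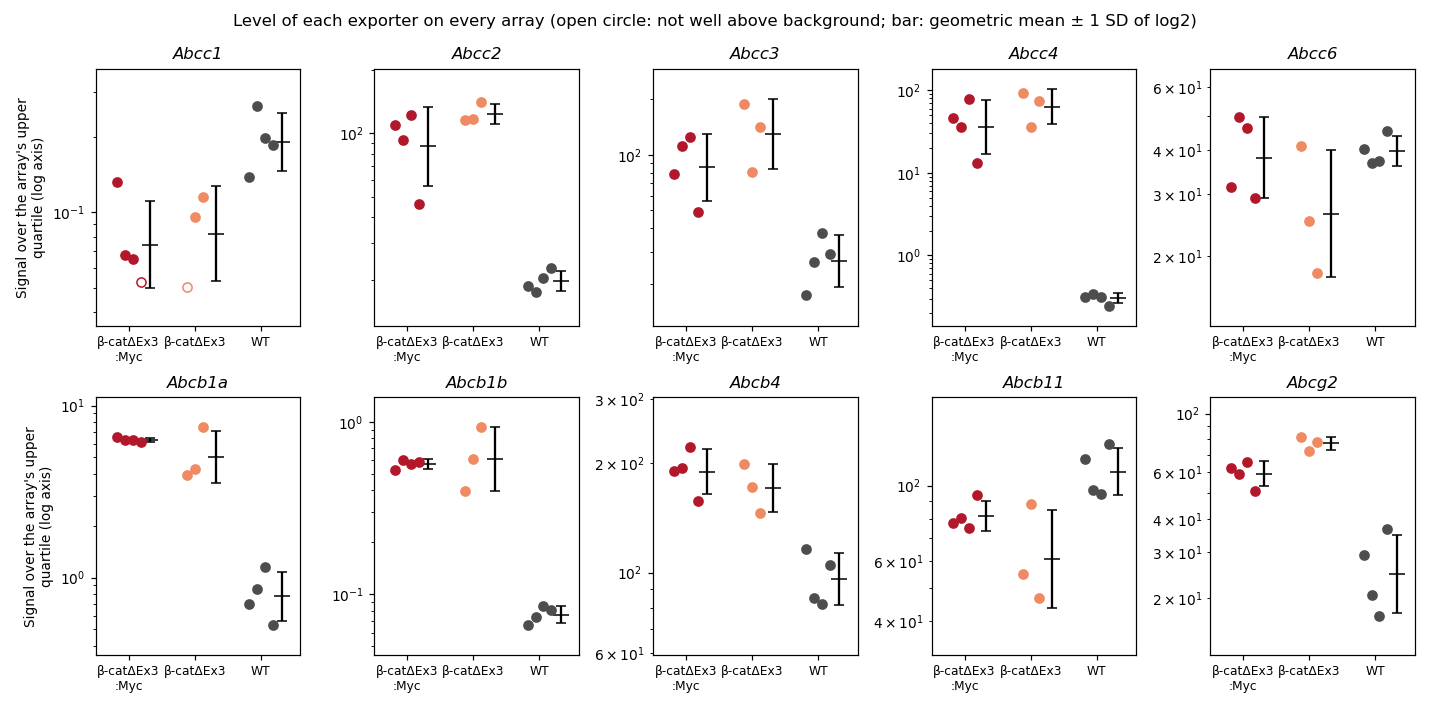
Level of each exporter on every array (signal over the array's upper quartile, log axis, one panel per gene with its own range), with the 4 β-catΔEx3:Myc, 3 β-catΔEx3 and 4 WT livers from left to right; open circles are spots not well above background and bars give the geometric mean ± 1 SD of log2 values. For Abcc4 the lowest mutant liver lies at 13.1 and the highest WT liver at 0.344, while for Abcc6 the groups overlap.

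Among the basolateral exporters, Abcc4 changed most. Abcc4 (Mrp4) carries bile acids, together with glutathione, and cyclic nucleotides into the blood. Its level (probe A_52_P630867) was 46.3, 35.9, 78.8 and 13.1 in β-catΔEx3:Myc livers, 93.4, 36.2 and 75 in β-catΔEx3 livers and 0.313, 0.344, 0.311 and 0.247 in WT livers. Every mutant liver was far above every WT liver, and β-catΔEx3:Myc replicate 4 was the lowest of the mutants. The level was 120-fold higher in β-catΔEx3:Myc than in WT livers (log2 fold change 6.91 ± 0.48, adjusted p = 6.79e-06) and 210-fold higher in β-catΔEx3 than in WT livers (7.71 ± 0.52, adjusted p = 8.92e-06). Of all items, 99.9% had a lower fold change in each comparison. Both calls held with slide as a block. A different background correction (normexp), which lifts dim values such as those of WT, gave 6.01 for β-catΔEx3:Myc and 6.76 for β-catΔEx3.

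Abcc3 (Mrp3) exports glucuronides and bile salts to the blood. Its level (probe A_55_P1985623) was 79, 111, 124 and 49.1 in β-catΔEx3:Myc livers, 188, 80.4 and 142 in β-catΔEx3 livers and 17.5, 26.3, 37.8 and 29.2 in WT livers. Mutant and WT livers did not overlap, though the gap was narrow: the lowest mutant was again β-catΔEx3:Myc replicate 4, and the spread within each group was wide. Abcc3 was 3.2-fold higher in β-catΔEx3:Myc livers (log2 fold change 1.68 ± 0.36, adjusted p = 0.00395) and 4.83-fold higher in β-catΔEx3 livers (2.27 ± 0.39, adjusted p = 0.00153) than in WT livers. Neither call held with slide as a block, at 1.13 for β-catΔEx3:Myc (adjusted p = 0.326) and 1.9 for β-catΔEx3 (adjusted p = 0.13). On slide 4 alone the differences from the WT liver were 0.75 for β-catΔEx3:Myc and 2.28 for β-catΔEx3.

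Abcc1 (Mrp1) exports glutathione conjugates such as leukotriene C4 and is low in healthy hepatocytes. Its probe (A_52_P601688) was dim, with levels of 0.132, 0.0674, 0.0653 and 0.0528 in β-catΔEx3:Myc livers, 0.0505, 0.0961 and 0.115 in β-catΔEx3 livers and 0.138, 0.264, 0.197 and 0.186 in WT livers. It was well above background in 3 of 4 β-catΔEx3:Myc, 2 of 3 β-catΔEx3 and 4 of 4 WT livers. All mutant values were below all WT values, but the highest mutant, at 0.132, came close to the lowest WT, at 0.138. Abcc1 fell 2.57-fold in β-catΔEx3:Myc livers (log2 fold change -1.36 ± 0.34, adjusted p = 0.00869) and 2.32-fold in β-catΔEx3 livers (-1.21 ± 0.37, adjusted p = 0.025) against WT. The second call was lost without WT replicate 2 (adjusted p = 0.0668), without WT replicate 3 (0.0527) or without β-catΔEx3 replicate 1 (0.109). With slide as a block neither held (-1.3 for β-catΔEx3:Myc, adjusted p = 0.288, and -1.21 for β-catΔEx3, adjusted p = 0.324), and normexp reduced the changes to -0.58 for β-catΔEx3:Myc and -0.41 for β-catΔEx3.

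Abcc6 (Mrp6), whose loss causes pseudoxanthoma elasticum in people, lets hepatocytes release ATP into the blood. The probe used in the test (A_55_P1969904) gave 31.5, 49.4, 46 and 29.2 in β-catΔEx3:Myc livers, 40.9, 25.2 and 17.9 in β-catΔEx3 livers and 40.3, 36.6, 37.3 and 45.1 in WT livers. The WT livers lay close together, the β-catΔEx3:Myc livers reached to both sides of them, and 2 of the 3 β-catΔEx3 livers lay below them. The log2 fold change against WT was -0.06 ± 0.26 in β-catΔEx3:Myc livers (adjusted p = 0.873, 95% interval -0.64 to 0.52) and -0.59 ± 0.28 in β-catΔEx3 livers (adjusted p = 0.128, interval -1.21 to 0.04). The second probe (A_66_P137268) gave 4.36 to 9.09 in β-catΔEx3:Myc, 3.42 to 7.47 in β-catΔEx3 and 4.95 to 5.74 in WT livers, with differences from WT of 0.18 ± 0.28 for β-catΔEx3:Myc and -0.16 ± 0.30 for β-catΔEx3. The β-catΔEx3 difference at the first probe passed the threshold under quantile normalization (-0.79, adjusted p = 0.0246), in the authors' normalized values (-0.74, 0.0259), with the percentile taken over probes detected on every array (-0.75, 0.0406) and without β-catΔEx3 replicate 1 (-0.90, 0.0288).

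In the canalicular membrane, Abcb1a and Abcb1b are the mouse genes for P-glycoprotein, the multidrug exporter that the single gene ABCB1 encodes in people. The Abcb1a level (probe A_55_P1969477) was 6.57, 6.31, 6.33 and 6.11 in β-catΔEx3:Myc livers, 3.97, 4.29 and 7.51 in β-catΔEx3 livers and 0.699, 0.853, 1.16 and 0.529 in WT livers. The β-catΔEx3:Myc livers were nearly alike, with an SD of 0.04 on the log2 scale against 0.5 among β-catΔEx3 and 0.48 among WT livers, and no mutant came near WT. Abcb1a was 8.14-fold higher in β-catΔEx3:Myc livers (log2 fold change 3.03 ± 0.26, adjusted p = 2.35e-05) and 6.49-fold higher in β-catΔEx3 livers (2.7 ± 0.28, adjusted p = 0.000107) than in WT livers. With slide as a block the changes grew to 3.84 for β-catΔEx3:Myc (adjusted p = 0.00516) and 3.52 for β-catΔEx3 (adjusted p = 0.00629).

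Abcb1b was read by a dim probe (A_51_P245368). Its level was 0.522, 0.604, 0.571 and 0.586 in β-catΔEx3:Myc livers, 0.396, 0.611 and 0.929 in β-catΔEx3 livers and 0.0664, 0.0735, 0.0852 and 0.0814 in WT livers, well above background on all 11 arrays. The groups were wide apart from WT, and the β-catΔEx3:Myc livers were again the most alike. Abcb1b was 7.47-fold higher in β-catΔEx3:Myc livers (log2 fold change 2.9 ± 0.23, adjusted p = 1.4e-05) and 7.97-fold higher in β-catΔEx3 livers (2.99 ± 0.24, adjusted p = 2.48e-05) than in WT livers. The size depended on the background correction, as normexp gave 1.34 for β-catΔEx3:Myc and 1.49 for β-catΔEx3, both still past the threshold. The genes are close copies of each other, and whether each probe also catches the other transcript was not checked.

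Abcc2 (Mrp2) sends bilirubin glucuronides and glutathione conjugates into bile. Its level (probe A_51_P277745) was 109, 92.5, 122 and 46.3 in β-catΔEx3:Myc livers, 116, 117 and 141 in β-catΔEx3 livers and 18.8, 17.5, 20.5 and 22.8 in WT livers. Even β-catΔEx3:Myc replicate 4, the lowest mutant, was above the highest WT liver. Abcc2 was 4.39-fold higher in β-catΔEx3:Myc livers (log2 fold change 2.13 ± 0.27, adjusted p = 0.000222) and 6.26-fold higher in β-catΔEx3 livers (2.65 ± 0.29, adjusted p = 0.00015) than in WT livers. Once slide was a block the β-catΔEx3 increase kept its call (2.17, adjusted p = 0.0315) and the β-catΔEx3:Myc increase did not (1.49, adjusted p = 0.0814). The slide 4 difference from WT was 1.02 for β-catΔEx3:Myc and 2.63 for β-catΔEx3.

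Abcg2 (Bcrp) exports drugs, urate and porphyrins. The level (probe A_55_P1996504) was 62.1, 59.2, 65.7 and 51.1 in β-catΔEx3:Myc livers, 81.3, 72.3 and 78.1 in β-catΔEx3 livers and 29.2, 20.5, 17.2 and 36.6 in WT livers. None of the groups overlapped, which put β-catΔEx3 first, β-catΔEx3:Myc next and WT last. Abcg2 was 2.39-fold higher in β-catΔEx3:Myc livers (log2 fold change 1.26 ± 0.22, adjusted p = 0.00136) and 3.11-fold higher in β-catΔEx3 livers (1.64 ± 0.24, adjusted p = 0.000675) than in WT livers. The block on slide ended both calls, at 0.57 for β-catΔEx3:Myc (adjusted p = 0.308) and 1 for β-catΔEx3 (adjusted p = 0.109). WT replicate 4, the WT liver of slide 4, was the highest WT liver for this gene.

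The exporters of phospholipid and bile salt, main components of bile, had smaller differences from WT, of opposite sign. Abcb4 (Mdr2) flips phosphatidylcholine to the outer leaflet of the canalicular membrane. Its level (probe A_51_P249118) was 191, 194, 222 and 157 in β-catΔEx3:Myc livers, 199, 172 and 146 in β-catΔEx3 livers and 116, 84.9, 82.1 and 105 in WT livers. All mutants exceeded all WT livers, giving a 1.97-fold increase in β-catΔEx3:Myc (log2 fold change 0.98 ± 0.17, adjusted p = 0.00137) and a 1.78-fold increase in β-catΔEx3 (0.83 ± 0.19, adjusted p = 0.00625). With slide as a block these were 0.56 for β-catΔEx3:Myc (adjusted p = 0.231) and 0.49 for β-catΔEx3 (adjusted p = 0.299), no longer called.

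Abcb11 (Bsep) pumps bile salts into bile and is the classic target of Fxr among the exporters. The level (probe A_55_P2028029) was 77.9, 80.2, 75 and 93.9 in β-catΔEx3:Myc livers, 54.9, 88.6 and 46.9 in β-catΔEx3 livers and 120, 97.4, 94.7 and 132 in WT livers. Mutants lay below WT without overlap, but β-catΔEx3:Myc replicate 4, at 93.9, stood just under the lowest WT liver. Abcb11 fell 1.8-fold in β-catΔEx3 livers (log2 fold change -0.85 ± 0.22, adjusted p = 0.0137), a call lost without β-catΔEx3 replicate 1 (adjusted p = 0.0547), without replicate 3 (0.055) and with slide as a block (-1.22, adjusted p = 0.102). In β-catΔEx3:Myc livers the log2 fold change of -0.43 ± 0.21 missed the threshold (adjusted p = 0.118). It passed under quantile normalization (-0.72, adjusted p = 0.0149), in the authors' normalized values (-0.70, 0.0148), with the percentile over probes detected on all arrays (-0.56, 0.0455) and without β-catΔEx3 replicate 2 (-0.43, 0.0443).

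**Figure D2:**
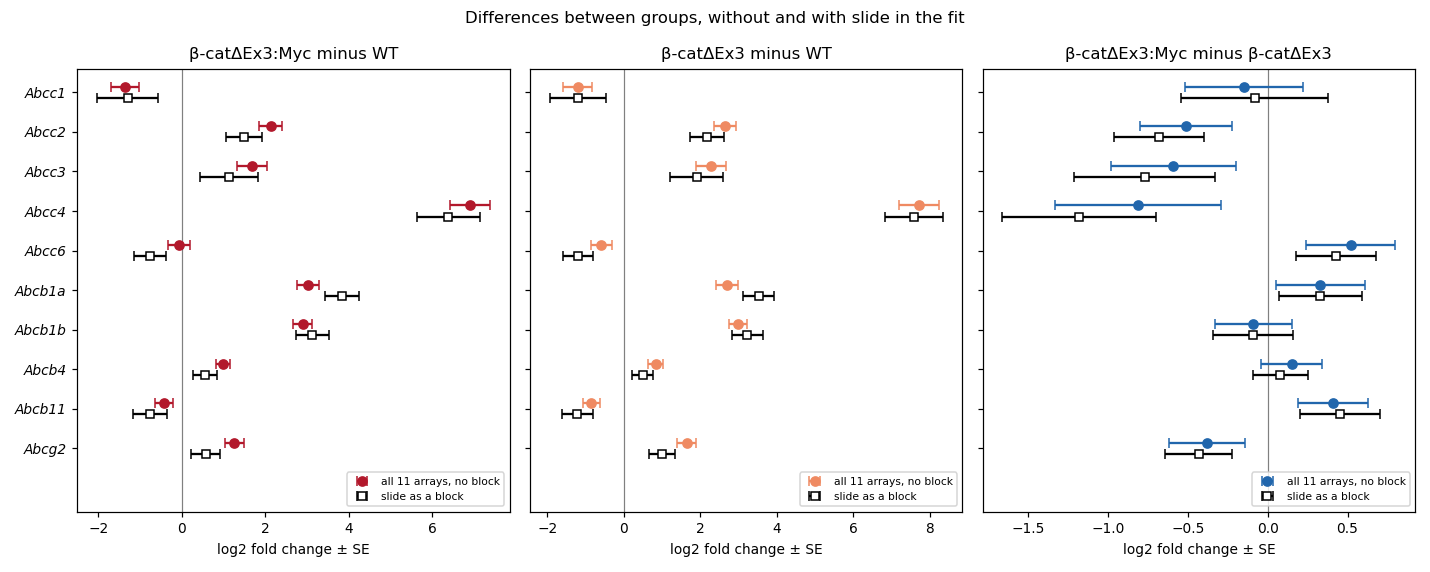
Log2 fold change ± SE of each exporter in the 3 comparisons, without (circles) and with (squares) slide as a block; zero is no difference. Abcc4 stands at 6.91 and 7.71 against WT, Abcb1a and Abcb1b between 2.7 and 3.03, and the right-hand panel, on a narrower axis, holds the differences between the mutant groups.

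With slide as a block, 3 exporters remained called higher in β-catΔEx3:Myc livers (Abcc4, Abcb1a and Abcb1b) and 4 in β-catΔEx3 livers (the same 3 and Abcc2), and none was called lower. The block left 961 higher and 993 lower items of all in β-catΔEx3:Myc, and 927 higher and 886 lower in β-catΔEx3, against 5637 higher and 3813 lower without it in β-catΔEx3:Myc, and 4803 higher and 3462 lower in β-catΔEx3. On slide 4, with 1 liver of each group, the signs of the differences from WT were the same as in the whole set for all 10 exporters in both mutant groups. For β-catΔEx3:Myc they were 5.72 for Abcc4, 3.53 for Abcb1a, 2.85 for Abcb1b, 0.58 for Abcb4, 0.48 for Abcg2, -0.49 for Abcb11 and -1.82 for Abcc1 on the log2 scale. For β-catΔEx3 they were 8.24 for Abcc4, 3.83 for Abcb1a, 3.51 for Abcb1b, 0.47 for Abcb4, 1.09 for Abcg2, -1.49 for Abcb11 and -0.69 for Abcc1. The slide 4 livers are part of the whole set, so the shared signs are partly built in. The share of all items with a shared sign was not counted. For Abcc6 in β-catΔEx3:Myc livers, the whole-set -0.06 became 0 without WT replicate 4 and 0.06 without β-catΔEx3:Myc replicate 4. The second Abcc6 probe stood at 0.18 in the whole set and -0.24 on slide 4 in β-catΔEx3:Myc livers. Genotype and slide cannot be told apart for the WT livers of slide 1.

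Between the mutant groups no exporter was called: limma gave 0 higher and 0 lower of 10, beside 0.108% of all items called higher in β-catΔEx3:Myc and 0.144% called lower. None reached an unadjusted p under 0.05 either, beside 2295 of all 22282 items. Among 10 exporters, such a count is no sign that the mutant groups were alike. The sizes ran from -0.81 ± 0.52 for Abcc4 (β-catΔEx3:Myc minus β-catΔEx3, 95% interval -1.96 to 0.35, adjusted p = 0.669) to 0.52 ± 0.28 for Abcc6 (interval -0.10 to 1.15, adjusted p = 0.586). Abcg2 was the single exporter whose mutant groups did not overlap, beside 8.1% of all items, lower in β-catΔEx3:Myc by a log2 fold change of -0.38 ± 0.24 (interval -0.91 to 0.15, adjusted p = 0.655). Leaving out an array cannot close such a gap. A check without single arrays, added after seeing the data, could therefore only add exporters to Abcg2. Abcc2 was added without β-catΔEx3:Myc replicate 3, and Abcb1b and Abcc6 without β-catΔEx3 replicate 1. Abcb11 and Abcc3 were added without β-catΔEx3 replicate 2, and Abcb1a without β-catΔEx3 replicate 3. Gaps arise more easily with fewer arrays, and the share of all items with a gap was not counted for these settings. The added gaps are thus no sign of a difference between the mutant groups. The narrowest interval was that of Abcb4, from -0.26 to 0.57. The intervals leave room for differences of about the size of the Abcb4 increase over WT in most of the genes.

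Abcc2, Abcc3, Abcc4 and Abcg2 were lowest, among mutants, in β-catΔEx3:Myc replicate 4. On slide 4 this liver differed from the β-catΔEx3 liver by -2.52 for Abcc4, -1.61 for Abcc2 and -1.53 for Abcc3, while on slide 2 the mean difference between the mutant groups was -0.51 for Abcc4, -0.21 for Abcc2 and -0.40 for Abcc3. Only 2 of the 10 exporters were above their group mean in that liver, against 5 to 8 in the other β-catΔEx3:Myc livers. Abcb1a and Abcb1b did not share this: at 6.11 and 0.586 they lay within a narrow range with the rest of the group.

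**Figure D3:**
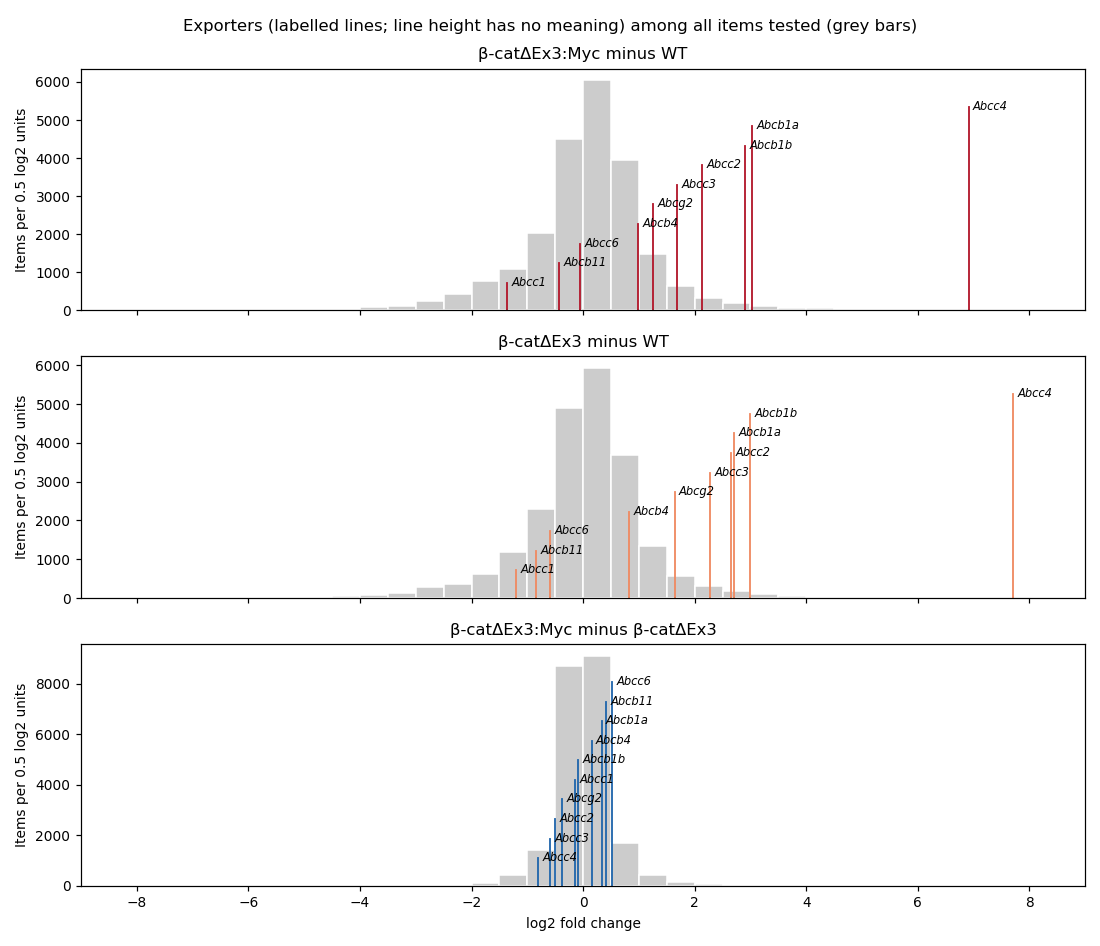
Distribution of log2 fold changes of all 22282 items (grey bars, items per 0.5 log2 units) in the 3 comparisons, with each exporter's value as a labelled line whose height has no meaning. Against WT, Abcc4 lies at 6.91 and 7.71, at the far right, while Abcc6 lies at -0.06 and -0.59, inside the bulk of the items.

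Across the 11 arrays, some exporters resembled each other in their log2 levels, which is a description, since all share the 3 groups and the same arrays. Abcc2 and Abcc4 had a Pearson r of 0.98, and 0.793 after the group means were removed. Abcb1a and Abcb1b had 0.975, and 0.609 after removal. Not every pair kept its sign. Abcb1a and Abcb4 had 0.832, and -0.667 after removal, and Abcb1b and Abcb4 had 0.843, and -0.602 after removal. Of all other named genes, the closest in pattern to Abcc4 were Cln6 (r = 0.997) and Chil6 (0.994), and to Abcc2 they were Cbr3 (0.99), a carbonyl reductase, and Pmm1 (0.989). Abcc3 was closest to Kif5a (0.979), Abcb1a to Mat2a (0.977), which makes S-adenosylmethionine, Abcb1b to Rab33a (0.99), Abcb4 to Rtca (0.991) and Abcg2 to Gfm1 (0.981). Of the exporters that did not rise, Abcb11 was closest to Proz (0.938), a coagulation protein made by hepatocytes, Abcc1 to Tnfrsf21 (0.953) and Abcc6 to Zkscan14 (0.943). After the group means were removed, r was 0.422 for Abcb1a and Mat2a and 0.698 for Abcb1b and Rab33a. For the other genes named as closest it lay between 0.816 (Chil6) and 0.962 (Zkscan14). Cbr3 itself stood at 7.44 and 8.55 on the log2 scale over WT in β-catΔEx3:Myc and β-catΔEx3 livers, and Cln6 at 4.17 and 4.59.

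Abcb1a, Abcb1b and Abcb4 lie side by side on chromosome 5, and all 3 rose in both mutant groups. The genes that flank this cluster were not called higher. Rundc3b, on one side, stood at 0.50 ± 0.34 in β-catΔEx3:Myc (adjusted p = 0.27) and 0.49 ± 0.37 in β-catΔEx3 livers (adjusted p = 0.326), and Crot, a peroxisomal carnitine transferase on the other side, at -0.97 ± 0.40 in β-catΔEx3:Myc (adjusted p = 0.0759) and -1.27 ± 0.43 in β-catΔEx3 livers (adjusted p = 0.0406). Around Abcc4 on chromosome 14, the nearest measured genes were not called: Sox21 stood at -0.02 in β-catΔEx3:Myc and -0.01 in β-catΔEx3 livers, and Dzip1 at 0.22 in β-catΔEx3:Myc and 0.20 in β-catΔEx3 livers.

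The genes that supply the Mrp exporters with cargo were described next. Counts of this and the later lists stand beside the shares of all items called. Those were 25.3% higher and 17.1% lower in β-catΔEx3:Myc, and 21.6% higher and 15.5% lower in β-catΔEx3 livers. Of 11 measured genes of glutathione synthesis and conjugation, 9 rose and 0 fell in each mutant group against WT, with a median log2 fold change of 1.47 in β-catΔEx3:Myc and 1.27 in β-catΔEx3 livers. Gclc, the catalytic part of the enzyme that limits glutathione synthesis, rose by 2.22 ± 0.47 in β-catΔEx3:Myc (adjusted p = 0.00374) and by 2.87 ± 0.51 in β-catΔEx3 livers (adjusted p = 0.00187). Ggt1, which breaks glutathione down outside the cell and is a marker of fetal liver, was not well above background in any WT liver, so it was at least 27.7-fold higher in β-catΔEx3:Myc and at least 14.6-fold higher in β-catΔEx3 livers. For such a bound, a dim probe was given the faintest signal still flagged as well above background on its array, unless its own was higher. Gstp1, a glutathione transferase, rose by 1.87 ± 0.52 in β-catΔEx3:Myc (adjusted p = 0.0145) and by 2.16 ± 0.56 in β-catΔEx3 livers (adjusted p = 0.0126). With slide as a block, the Gstp1 difference turned to -0.46 in β-catΔEx3:Myc (adjusted p = 0.463) and was 0.08 in β-catΔEx3 livers (adjusted p = 0.918). Gclc also lost its calls there, at 1.5 in β-catΔEx3:Myc (adjusted p = 0.324) and 2.4 in β-catΔEx3 livers (adjusted p = 0.144). Under the slide block, 1 gene of the list was called higher in β-catΔEx3:Myc and 2 in β-catΔEx3 livers, and 1 in each was called lower.

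Of 13 other known targets of Nrf2, 11 rose and 1 fell in each mutant group, with medians of 2.22 in β-catΔEx3:Myc and 3.39 in β-catΔEx3 livers. Under the slide block, 5 were called higher in β-catΔEx3:Myc and 8 in β-catΔEx3 livers. Gclc, Gclm and Gstm1 are in this list and in that of glutathione. Among them, Gsta1, a glutathione transferase, stood at 10.67 ± 0.60 in β-catΔEx3:Myc and 11.53 ± 0.65 in β-catΔEx3 livers, and Nqo1, a quinone reductase, stood at 4.38 ± 0.42 in β-catΔEx3:Myc and 5.02 ± 0.45 in β-catΔEx3 livers (adjusted p between 2.19e-06 and 4.69e-05). The gene that fell was G6pdx, the first enzyme of the pentose phosphate pathway, at -1.79 in each mutant group (adjusted p = 0.032 in β-catΔEx3:Myc and 0.0487 in β-catΔEx3 livers). With slide as a block that call was lost, at -0.31 in β-catΔEx3:Myc (adjusted p = 0.854) and -0.14 in β-catΔEx3 livers (adjusted p = 0.936). Slc7a11, the cystine importer, was well above background in 3 of 4 β-catΔEx3:Myc, 3 of 3 β-catΔEx3 and 0 of 4 WT livers, and was at least 20.6-fold higher in β-catΔEx3:Myc and at least 88.5-fold higher in β-catΔEx3 livers. Under the block its adjusted p was 0.165 in β-catΔEx3:Myc and 0.0483 in β-catΔEx3 livers. The gene for Nrf2 itself, Nfe2l2, differed from WT by -0.33 ± 0.27 in β-catΔEx3:Myc (adjusted p = 0.364) and by -0.18 ± 0.30 in β-catΔEx3 livers (adjusted p = 0.662).

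Of 8 other known targets of Car and Pxr, 4 rose and 0 fell in each mutant group (median 0.41 in β-catΔEx3:Myc and 0.09 in β-catΔEx3 livers), with 1 called in each under the block. Gstm3 stood at 3.24 ± 0.28 in β-catΔEx3:Myc and 4.06 ± 0.30 in β-catΔEx3 livers (adjusted p = 2.58e-05 and 1.5e-05). The cytochrome P450 genes Cyp3a25 and Cyp2c55 rose by 1.97 ± 0.28 and 2.33 ± 0.60 in β-catΔEx3:Myc, and by 2.04 ± 0.30 and 2.43 ± 0.64 in β-catΔEx3 livers. Cyp2b10, the usual marker of Car, ranged from 0.0614 to 15.1 in β-catΔEx3:Myc, from 12.6 to 22.6 in β-catΔEx3 and from 3.76 to 102 in WT livers, and was not called. Of 5 targets of Ahr, 2 rose in each mutant group (median 1.11 in β-catΔEx3:Myc and 1.14 in β-catΔEx3 livers), with 1 left under the block. They were Nqo1, shared with the Nrf2 list, and Cyp1a2, at 1.65 ± 0.43 in β-catΔEx3:Myc (adjusted p = 0.0106) and 2.54 ± 0.46 in β-catΔEx3 livers (adjusted p = 0.00214), which is also a gene of hepatocytes around the central vein. Under the block Cyp1a2 was at -0.07 in β-catΔEx3:Myc (adjusted p = 0.938) and 1.13 in β-catΔEx3 livers (adjusted p = 0.141).

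Fxr is the receptor of bile acids. Of 5 measured targets, 2 rose and 0 fell in β-catΔEx3:Myc livers (median 0.41), and 0 rose and 1 fell in β-catΔEx3 livers (median -0.55). The list does not part targets that Fxr raises from targets that it lowers. Its counts and medians are therefore no measure of Fxr activity. Slc51b, a subunit of Ostα/β and the only measured gene of the list of basolateral bile acid exit, rose by 2.14 ± 0.34 in β-catΔEx3:Myc (adjusted p = 0.000763), with 0.77 ± 0.37 in β-catΔEx3 livers (adjusted p = 0.125), while its partner Slc51a was below the filter. Sult2a1, which sulfates bile acids, rose by 4.94 ± 1.25 in β-catΔEx3:Myc (adjusted p = 0.00931), with 3.53 ± 1.35 in β-catΔEx3 livers (adjusted p = 0.0627). The mutant groups differed by 1.40 ± 1.35 for this gene (adjusted p = 0.813), and its WT levels spread from 0.796 to 61.7. Cyp8b1, which sets the share of cholic acid, fell by 2.93 on the log2 scale in β-catΔEx3 livers (adjusted p = 0.00075), with -0.98 ± 0.41 in β-catΔEx3:Myc livers (adjusted p = 0.0759). Under the block, Sult2a1 was called higher and Cyp8b1 lower in β-catΔEx3:Myc, and Cyp8b1 lower in β-catΔEx3 livers.

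Of 16 nuclear receptors and factors known to control the exporters, 5 rose and 4 fell in β-catΔEx3:Myc livers, and 5 rose and 3 fell in β-catΔEx3 livers, with medians of 0.17 and 0.20. Of all items, 25.3% rose and 17.1% fell in β-catΔEx3:Myc livers, and 21.6% rose and 15.5% fell in β-catΔEx3 livers. Nr1h4, the gene for Fxr, fell by 1.16 on the log2 scale in β-catΔEx3:Myc (adjusted p = 0.000308) and by 0.60 in β-catΔEx3 livers (adjusted p = 0.0183), and the first of these was the one call of the list that held under the block (adjusted p = 0.036). Ppara, the receptor of fatty acids, fell by 0.97 in β-catΔEx3:Myc (adjusted p = 0.000419) and by 0.42 in β-catΔEx3 livers (adjusted p = 0.0468). Esr1, the oestrogen receptor, fell by 2.75 in β-catΔEx3:Myc livers (adjusted p = 0.00348), with -1.50 ± 0.62 in β-catΔEx3 livers (adjusted p = 0.0821). Nr1i2, the gene for Pxr, rose by 0.90 ± 0.19 in β-catΔEx3:Myc (adjusted p = 0.00368) and by 0.76 ± 0.21 in β-catΔEx3 livers (adjusted p = 0.0154). Nr1i3, the gene for Car, was not called, at 0.14 ± 0.38 in β-catΔEx3:Myc and 0.98 ± 0.41 in β-catΔEx3 livers. Nr1i2, Nr1i3, Nfe2l2, G6pdx and Cyp2b10 were picked after their values were seen.

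Other ABC genes moved in both directions. Of 5 other Abcc genes, 1 rose and 1 fell in β-catΔEx3:Myc livers (median -0.04), and 1 rose and 0 fell in β-catΔEx3 livers (median -0.05). Abcc5, an exporter of cyclic nucleotides, rose by 1.36 ± 0.36 in β-catΔEx3:Myc (adjusted p = 0.0123) and by 1.11 ± 0.39 in β-catΔEx3 livers (adjusted p = 0.0479). Abcc9, a subunit of potassium channels of vessel walls, stood at -0.82 ± 0.18 in β-catΔEx3:Myc (adjusted p = 0.00507) and -0.31 ± 0.20 in β-catΔEx3 livers (adjusted p = 0.241).

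Of 7 other Abcb genes, 2 rose and 2 fell in each mutant group, with medians of -0.29 in β-catΔEx3:Myc and -0.25 in β-catΔEx3 livers. Tap1 and Tap2, which carry peptides to MHC class I molecules, were the genes that fell, by 2.04 and 1.32 in β-catΔEx3:Myc and by 2.44 and 1.43 in β-catΔEx3 livers. Abcb6, a porphyrin carrier, rose by 0.88 ± 0.18 in β-catΔEx3:Myc and by 1.05 ± 0.20 in β-catΔEx3 livers. Of 5 other Abcg genes, 1 fell in β-catΔEx3:Myc (median 0.56) and 0 changed in β-catΔEx3 livers (median -0.12). Abcg3 was well above background in 0 of 4 β-catΔEx3:Myc, 1 of 3 β-catΔEx3 and 4 of 4 WT livers, and was at least 1.57-fold lower in β-catΔEx3:Myc than in WT livers (adjusted p = 0.0294). Under the block the only calls left among these ABC genes were 1 higher and 1 lower of the Abcb genes, both in β-catΔEx3 livers. They were Abcb8, at 0.83, and Tap2, at -1.49. Abcb6, at 0.61, and Tap1, at -1.97, were not called there.

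Of 10 other canalicular and sterol transporters, 0 rose in either group, while 3 fell in β-catΔEx3:Myc (median -0.24) and 2 fell in β-catΔEx3 livers (median -0.08), of which 1 in β-catΔEx3 livers was called under the block. Tmem30a, the partner of the lipid flippase Atp8b1, fell by 0.73 in β-catΔEx3:Myc and by 0.43 in β-catΔEx3 livers. Abca1, which loads cholesterol onto HDL, fell by 0.83 in β-catΔEx3:Myc livers (adjusted p = 0.00186) and stood at -0.36 ± 0.17 in β-catΔEx3 livers (adjusted p = 0.112). Abca8a fell by 1.35 in β-catΔEx3:Myc and by 2.46 in β-catΔEx3 livers.

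Of 12 scaffold and trafficking genes of the canaliculus, 4 rose and 2 fell in each mutant group, with a median of 0.07 in each and no call under the block. Myo5b, the motor that carries exporters to the canaliculus, rose by 0.80 ± 0.15 in β-catΔEx3:Myc and by 0.85 ± 0.17 in β-catΔEx3 livers. Msn, an actin linker abundant in leukocytes and endothelium, fell by 1.93 in β-catΔEx3:Myc and by 1.26 in β-catΔEx3 livers. Without the block, no gene of any of these lists was called between the mutant groups, and with it 1 target of Fxr was called higher in β-catΔEx3:Myc livers.

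**Figure D4:**
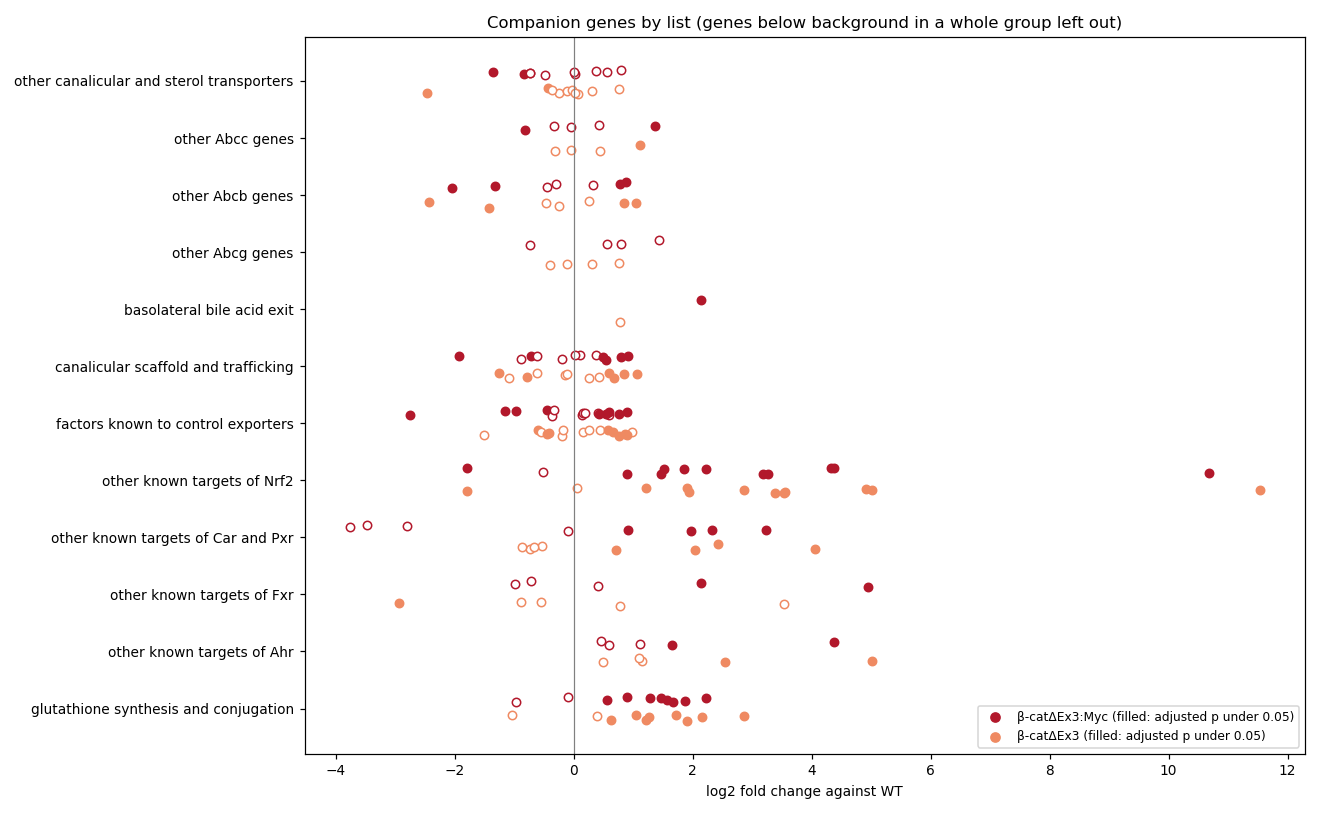
Log2 fold change against WT of the measured genes in each list, with β-catΔEx3:Myc as the upper and β-catΔEx3 as the lower row of points, filled where the adjusted p was under 0.05; genes below background in a whole group are left out. Points for Nrf2 targets reach 10.67 and 11.53 (Gsta1), while those of other canalicular and sterol transporters lie at or below 0.80.

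Markers of other cell types moved with genotype beside the exporters. The summed level of 8 hepatocyte markers was 2860 to 4380 in β-catΔEx3:Myc, 3290 to 3890 in β-catΔEx3 and 5530 to 6880 in WT livers, and all 8 were above background. For 7 macrophage markers it was 16.7 to 61.4 in β-catΔEx3:Myc, 19.1 to 55 in β-catΔEx3 and 222 to 344 in WT livers, and all 7 were called lower in each mutant group. For 8 endothelial markers it was 27.1 to 43.1 in β-catΔEx3:Myc, 52.5 to 69.2 in β-catΔEx3 and 111 to 133 in WT livers, with 6 called lower in β-catΔEx3:Myc and 5 in β-catΔEx3 livers. For 8 stellate cell markers it was 25.3 to 49.9 in β-catΔEx3:Myc, 61.9 to 70.1 in β-catΔEx3 and 77.1 to 138 in WT livers, with 6 called lower in β-catΔEx3:Myc and 3 in β-catΔEx3 livers. Biliary markers summed to 1.78 to 2.11 in β-catΔEx3:Myc, 3.34 to 4.36 in β-catΔEx3 and 4.69 to 9.05 in WT livers, and Cftr was not above background on any array. Of the 7 biliary markers tested, 0 were called higher and 3 lower in β-catΔEx3:Myc livers. In β-catΔEx3 livers 1 was called higher and 1 lower, so the biliary markers did not move as one. Of the 8 hepatocyte markers, 1 was called higher and 4 lower in β-catΔEx3:Myc livers. In β-catΔEx3 livers 0 were called higher and 5 lower. Cps1 ran against the hepatocyte sum, at 63 to 150 in β-catΔEx3:Myc and 34.5 to 55.8 in WT livers. The part of the cell types in the exporters' changes was not tested. In tissue RNA, fewer cells of a type and less RNA per cell cannot be told apart.

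Erythroid and neutrophil markers varied widely among the β-catΔEx3:Myc livers. Erythroid markers summed to 35.5 to 908 in β-catΔEx3:Myc, 42.5 to 158 in β-catΔEx3 and 531 to 1160 in WT livers, and neutrophil markers to 8.58 to 81.7 in β-catΔEx3:Myc, 5.56 to 13.3 in β-catΔEx3 and 7.66 to 12 in WT livers. Of 8 erythroid markers, 1 was called higher and 1 lower in β-catΔEx3:Myc livers. In β-catΔEx3 livers 0 were called higher and 5 lower. The erythroid marker Klf1 was 1.03 to 2.17 in β-catΔEx3:Myc and 0.185 to 1.09 in WT livers. Of 7 neutrophil markers, 2 were called higher in β-catΔEx3:Myc and 1 in β-catΔEx3 livers, and 0 lower. Single markers differed in direction: Elane was 4.64 to 9.56 in β-catΔEx3 and 1.72 to 2.27 in WT livers. S100a9 was 0.616 to 2.56 in β-catΔEx3 and 4.11 to 7.49 in WT livers. The highest neutrophil sum, 81.7, was that of β-catΔEx3:Myc replicate 4, the mutant liver with the lowest Abcc2, Abcc3 and Abcc4, and its part in those levels was not tested. T, B and NK cell markers summed to 5.21 to 9.5 in β-catΔEx3:Myc, 6.34 to 7.7 in β-catΔEx3 and 5.65 to 8.32 in WT livers. Of the 4 of these tested, 1 was called higher and 2 lower in β-catΔEx3:Myc livers. In β-catΔEx3 livers 0 were called higher and 2 lower, so a similar sum does not mean that each marker was unchanged.

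**Figure D5:**
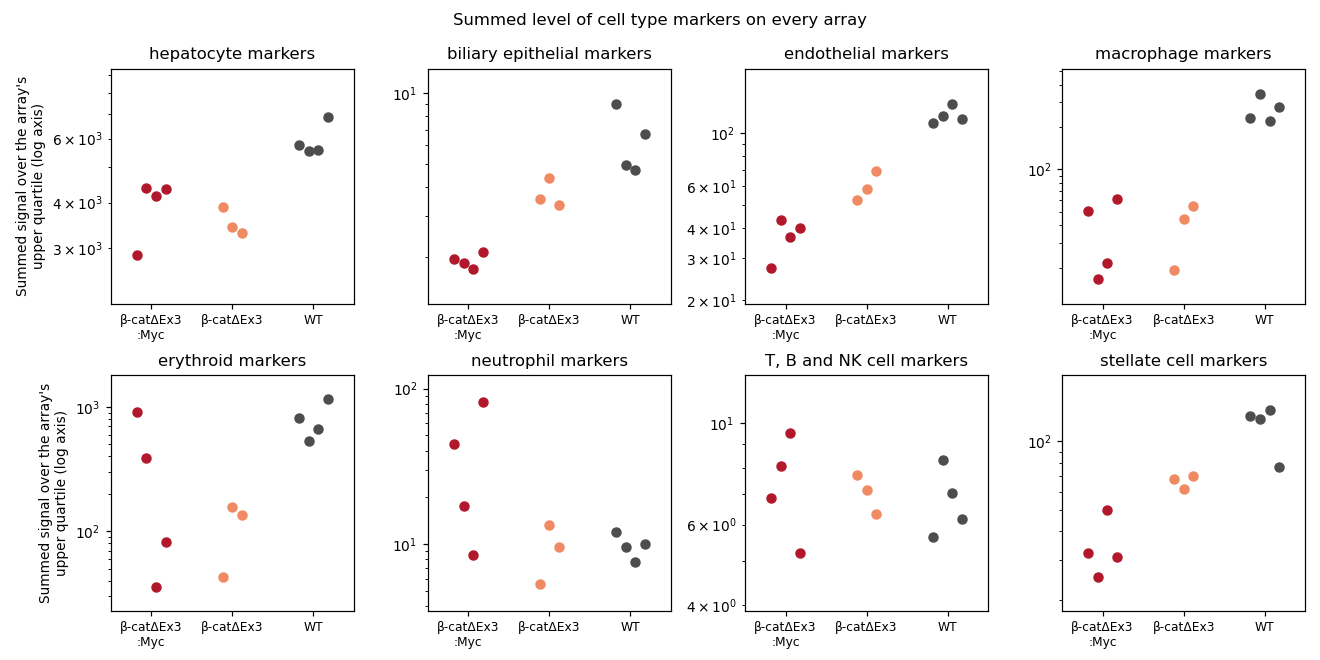
Summed level of the markers of 8 cell types on every array (summed signal over the array's upper quartile, log axis, one panel per cell type), with β-catΔEx3:Myc, β-catΔEx3 and WT livers from left to right. Macrophage markers lie at or below 61.4 in mutant livers and at or above 222 in WT livers.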

How the data were processed

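Per the labels, total RNA of each liver was labelled with Cy3 and hybridised to its own array. Agilent Feature Extraction 10.7.1.1 was the scanner software per the file headers, and the authors deposited its background-subtracted signal intensities, on a linear scale, with flags for each spot. They also deposited a table of log2 values, quantile normalized between arrays (median 4.51 on each), which was used as an alternative. From the intensities, 137 to 209 outlier spots per array were left out, none of them on a probe described here, spots of a probe were averaged, and each array's 75th percentile was subtracted on the log2 scale. Between 47.9% and 52.4% of probes per array passed the scanner's test of signal over background, none was saturated, and the 29695 probes that passed on 3 or more arrays were used. Accessions were matched to RefSeq symbols for 26582 of 55681 probes, and the probe with the highest mean stood for a gene. The 3 groups were fitted together with limma 3.58.1 in R 4.3.3 (residual degrees of freedom 8, prior 2.51), with files read by data.table (version 1.17.8). Groups come from the labels, separate animals bear separate titles, and the number of arrays limits the precision. Figures and promoter searches used Python 3.11.15, pandas 2.3.3 and matplotlib 3.10.9. The fit was tested on simulated data. Alternatives were quantile normalization, the percentile over probes detected on every array, normexp with an offset of 50 on median signals, no or another filter on dim probes, slide or scan day as a block, the mean of a gene's probes, the deposited log2 values, array weights, only the groups compared, and each array left out in turn. The exporters, the lists (glutathione, targets of Nrf2, Car and Pxr, Fxr and Ahr, regulators, other Abcc, Abcb and Abcg genes, sterol transporters, basolateral exit, canalicular scaffold), the markers and the motifs were chosen with earlier results of these data known. From each list the text names up to 3 called genes with the largest change, and from the whole array the genes most correlated with each exporter over the 11 arrays. One such gene is not reported here.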

Additional observations from a re-analysis of the deposited data

How the results depend on the processing

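The 7 exporters higher than WT in each mutant group stayed 7 under every scaling, background correction, filter and probe rule tried and without any single array, and fell to 3 in β-catΔEx3:Myc and 4 in β-catΔEx3 livers with slide as a block. Under that block the exporters called lower were 0 in both groups, and the items called were 961 higher and 993 lower in β-catΔEx3:Myc against WT, 927 and 886 in β-catΔEx3 against WT, and 115 and 63 in β-catΔEx3:Myc against β-catΔEx3. Exporters called lower in β-catΔEx3:Myc were 2 with quantile normalization, with the percentile over probes detected on all arrays and with the deposited table, and 1 to 2 without single arrays. In β-catΔEx3 they were 3 under those 3 settings and 1 to 2 without single arrays. Between the mutant groups, 24 items higher and 32 lower became 43 and 65 with the filter by group, 14 and 7 with array weights, 6 and 3 with only these groups, 113 and 58 with scan day as a block, and 6 to 118 and 4 to 74 without single arrays, and the lower ones became 15 with the percentile over detected probes. The sign of Abcc6 in β-catΔEx3:Myc against WT (-0.06) turned with array weights (0.02), with the mean of its probes (0.06) and without WT replicate 4 (0), β-catΔEx3:Myc replicate 1 (0.03) or replicate 4 (0.06), with a lowest value of -0.19 when arrays were left out. Between the mutant groups that of Abcc1 (-0.15) turned with array weights (0.08) and without β-catΔEx3 replicate 3 (0.10) or β-catΔEx3:Myc replicate 4 (0.02), with -0.50 at the other end, and that of Abcb1b (-0.09) without β-catΔEx3 replicate 3 (0.21), with -0.40 at the other end. The percentile over detected probes moved the median of all items by -0.13 in β-catΔEx3:Myc and -0.17 in β-catΔEx3 against WT, and the share of calls that were higher to 50% and 43.6%, from 59.7% and 58.1%. The causes were not tested. No paired analysis was possible because the labels carry no number shared between groups. Dim signals limit Abcc1 and Abcb1b.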

Other observations

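The neighbours of other exporters showed changes of their own. Ankrd40, next to Abcc3 on chromosome 11, rose by 0.74 ± 0.21 in β-catΔEx3:Myc (adjusted p = 0.0172) and by 0.89 ± 0.23 in β-catΔEx3 livers (adjusted p = 0.0122). Emp3, the nearest measured gene before Abcc6 on chromosome 7, fell by 2.30 in β-catΔEx3:Myc (adjusted p = 0.00214) and by 1.98 in β-catΔEx3 livers (adjusted p = 0.00868), while Abcc6 was not called. Dhrs9, next to Abcb11 on chromosome 2, rose by 1.72 ± 0.51 in β-catΔEx3:Myc livers (adjusted p = 0.0201) and stood at 1.09 ± 0.55 in β-catΔEx3 livers (adjusted p = 0.147). Cutc and Dnmbp, on either side of Abcc2 on chromosome 19, were not called in either comparison.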
